A study of Homo sapiens with 32 samples.

Results

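The 10 genes described here encode chaperones and co-chaperones of the endoplasmic reticulum (ER): HSPA5, HSP90B1, HYOU1, SIL1, DNAJB9, DNAJB11, DNAJC3, SDF2L1, CALR and CANX. They were found by matching the Ensembl identifier of each row of the count table to these symbols, and all 10 matched 1 row each among 60660 identifiers. Positions are from GENCODE release 29 on GRCh38. HSPA5 (ENSG00000044574) spans chr9:125234853-125241330 on the minus strand, HSP90B1 (ENSG00000166598) chr12:103930107-103953645 on the plus strand, HYOU1 (ENSG00000149428) chr11:119044189-119057202 on the minus strand, and SIL1 (ENSG00000120725) chr5:138946720-139293557 on the minus strand. The other members lie on the plus strand: DNAJB9 (ENSG00000128590) at chr7:108569568-108574850, DNAJB11 (ENSG00000090520) at chr3:186567403-186585800, DNAJC3 (ENSG00000102580) at chr13:95677139-95794989, SDF2L1 (ENSG00000128228) at chr22:21642261-21644298, CALR (ENSG00000179218) at chr19:12938578-12944489 and CANX (ENSG00000127022) at chr5:179678628-179730925.

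Poly(A) RNA was sequenced from HCT116, a human colorectal carcinoma line, in 32 libraries. All cells, parental ones included, carried the doxycycline-inducible OsTIR1 construct with its puromycin marker, labelled Tet-OsTIR1-PURO. IGF2BP3 or IGF2BP2, which encode related RNA-binding proteins, had been disrupted with Cas9 in sorted single-cell clones, 3 clones per gene. IGF2BP3 knockout clones A3 and E4 came from one guide and D12 from another, and IGF2BP2 knockout clones B7 and F6 came from one guide and G6 from another. Each clone had 2 libraries in DMSO and 2 in tunicamycin, so each knockout had 6 and 6. The parental cells had 4 and 4, as 2 parental samples with 2 libraries per treatment. Tunicamycin was used at 5 µg/mL over 4 h on parental and IGF2BP3 knockout cells, and their controls had DMSO diluted 1:1000. For the IGF2BP2 knockout clones, no dose or duration is given in the sources used here. The titles of the G6 control libraries say control while their treatment field says tunicamycin. They were placed with DMSO by title: HSPA5 stood there at 992 and 822 CPM (a gene's counts scaled to the size of its library), against 774 to 1047 in the other IGF2BP2 knockout DMSO libraries and 9016 to 9973 CPM in the IGF2BP2 knockout tunicamycin libraries. Nothing in the labels says that the 2 libraries of a line came from separate cultures, so p-values measure the spread between these libraries, which may be technical.

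Proteins that enter the ER are folded by an Hsp70 cycle. BiP, the product of HSPA5, binds exposed hydrophobic stretches; J-domain proteins start its ATP hydrolysis, and nucleotide exchange factors let it release the client. GRP94 (HSP90B1) is the Hsp90 of the ER, and calnexin (CANX) and calreticulin (CALR) hold glycoproteins through their trimmed N-glycans. Tunicamycin stops the first step of N-glycan assembly, and the resulting misfolded protein starts the unfolded protein response (UPR), whose transcription factors ATF6, XBP1 and ATF4 raise ER chaperone genes. ATF6 and XBP1 act through short promoter elements named ERSE, ERSE-II and UPRE.

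The promoters are shown because the elements they carry are those through which these factors are known to act. RefSeq promoters on GRCh38.p14 were searched over the 250 bases before each start, on both strands, for ERSE (CCAAT, 9 bases of any kind, CCACG), ERSE-II (ATTGG, 1 base, CCACG) and the UPRE core (TGACGTG). All 10 members had a promoter in the table. Exact matches to ERSE or ERSE-II lay in 6 of the 10 members, and in 43 of all 27305 genes with a promoter (0.157%). The elements were picked as those of factors known to raise ER chaperone genes, so these shares are a description and not a test. Each match is written below on the gene's strand, with the element in capitals and 5 bases on each side.
HSPA5, ERSE, chr9:125241386-125241414: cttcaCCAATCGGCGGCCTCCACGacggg
HSP90B1, ERSE, chr12:103930211-103930239: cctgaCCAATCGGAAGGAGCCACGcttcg
HSP90B1, ERSE reversed, chr12:103930316-103930344: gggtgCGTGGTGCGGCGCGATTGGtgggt
CALR, ERSE reversed, chr19:12938379-12938407: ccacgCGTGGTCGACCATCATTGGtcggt
CANX, ERSE, chr5:179698773-179698801: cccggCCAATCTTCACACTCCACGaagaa
HYOU1, ERSE-II reversed, chr11:119057269-119057289: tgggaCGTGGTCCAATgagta
HYOU1, ERSE-II reversed, chr11:119057375-119057395: cgtgaCGTGGTCCAATcccag
SDF2L1, ERSE-II reversed, chr22:21642109-21642129: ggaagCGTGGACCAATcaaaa
The HSPA5 element ended 48 bases before the RefSeq start. CANX has 4 starts in the table and its match lies before one of them. The HSP90B1 and CANX matches fall inside the gene spans given above because GENCODE has transcripts of both genes that begin upstream of that RefSeq start. The UPRE core occurred in 1 member, HYOU1, where it overlapped the ERSE-II farther from the start, and in 561 genes in all (2.05%). No exact match to ERSE or ERSE-II lay in these windows of DNAJB9, DNAJB11, DNAJC3 or SIL1, which says only that these letters are not there.

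Total counts were 16651438 to 24913021 per library, and the lowest count of any member in any library was 179. The RNA of each targeted gene was lower in its own knockout but not absent. In DMSO, IGF2BP3 stood at 76.6 ± 6.36 CPM (SD, n = 4) in parental cells and 27.7 ± 10.8 CPM (SD, n = 6) in IGF2BP3 knockout ones. IGF2BP2 stood at 176 ± 17.9 CPM (SD, n = 4) in parental cells and 86.3 ± 5.20 CPM (SD, n = 6) in IGF2BP2 knockout ones. These RNA levels do not by themselves show loss of the proteins. The epithelial markers EPCAM, CDH1, KRT8, KRT18 and KRT19 were expressed in every group. Of 8 markers of blood, stromal and endothelial cells, 7 had group means below 1 CPM and COL1A1 stood at 8.39 to 10.2 CPM. The 16 libraries numbered 1 had counts for 21259 to 23139 genes and the 16 numbered 2 for 23423 to 24267, so the numbers stood apart. For that reason values are also given within each number. The processed copies HSPA5P1 and HSP90B2P had mean counts of 3.59 and 5.81 (0.00348% and 0.0160% of the counts of HSPA5 and HSP90B1), and HSP90B3P was at 0.

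In DMSO, CALR and HSPA5 were the most abundant members per length of transcript and DNAJB9 and SIL1 the least. On the scale of CPM per kilobase of exon, CALR stood at 281 ± 28.5 (SD, n = 4) in parental DMSO libraries, HSPA5 at 250 ± 34.6, HSP90B1 at 175 ± 15.1 and CANX at 100.3 ± 9.67. SDF2L1, a partner of BiP and of the J-domain protein DNAJB11, stood at 42.0 ± 4.35, HYOU1 at 25.6 ± 1.5, DNAJC3 at 12.9 ± 0.91, DNAJB11 at 7.77 ± 0.46, SIL1 at 3.91 ± 0.28 and DNAJB9 at 3.48 ± 0.30 CPM per kilobase. The neighbours CALR and HSPA5, and SIL1 and DNAJB9, differed by less than the sum of their SDs, and with the longest transcript as length HSPA5 and HSP90B1 traded ranks 2 and 3. By exon length, the order of the 10 levels within each treatment was the same in all 3 genotypes. By the longest transcript this held in DMSO, while in tunicamycin HSP90B1 ranked 2 in IGF2BP2 knockout and 3 elsewhere, and HYOU1 ranked 5 in parental cells and 6 in both knockouts. CPM is a share of each library's RNA, so more transcript per cell and a larger share of expressing cells cannot be told apart.

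**Figure D1:**
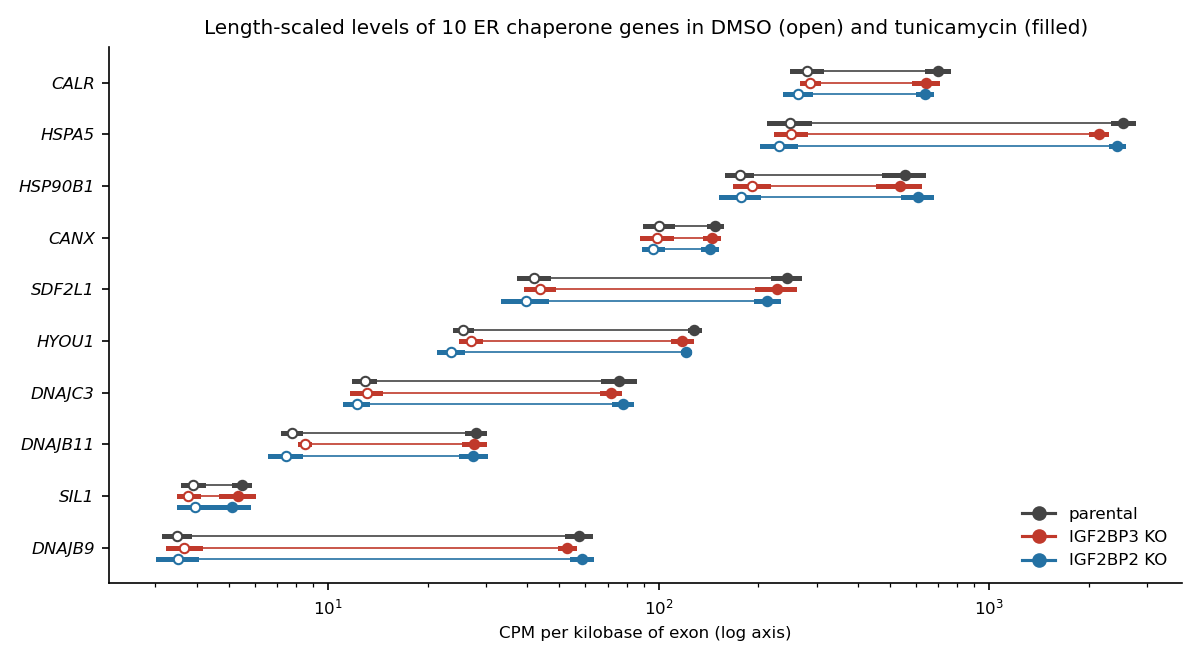
Levels of the 10 genes in CPM per kilobase of exon on a log axis, with open points for the DMSO mean, filled points for the tunicamycin mean and thick bars for 1 SD (n = 4 parental, 6 per knockout). HSPA5 passes CALR and DNAJB9 passes SIL1 and DNAJB11 on going from DMSO to tunicamycin, in each genotype.

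Tunicamycin raised all 10 genes in each genotype. The members were chosen with earlier results of these data known, so the shares of all genes beside them are a description and not a test. In parental cells the called members numbered 10 of 10, against 12.5% of 14398 genes called higher and 14.3% called lower. In IGF2BP3 knockout they were again 10 of 10 (16.2% of 14265 genes higher, 17.6% lower) and in IGF2BP2 knockout 10 of 10 (19.2% of 14145 higher, 20.9% lower). The median log2 change of the members was 2.09, 1.92 and 2.13 in that order, against -0.01 over all genes tested in each genotype. The smallest and the largest member change in parental cells were 0.49 (SIL1) and 4.04 (DNAJB9). Called means a Benjamini-Hochberg adjusted p under 0.05, over all genes tested, in the quasi-likelihood test of edgeR.

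**Figure D2:**
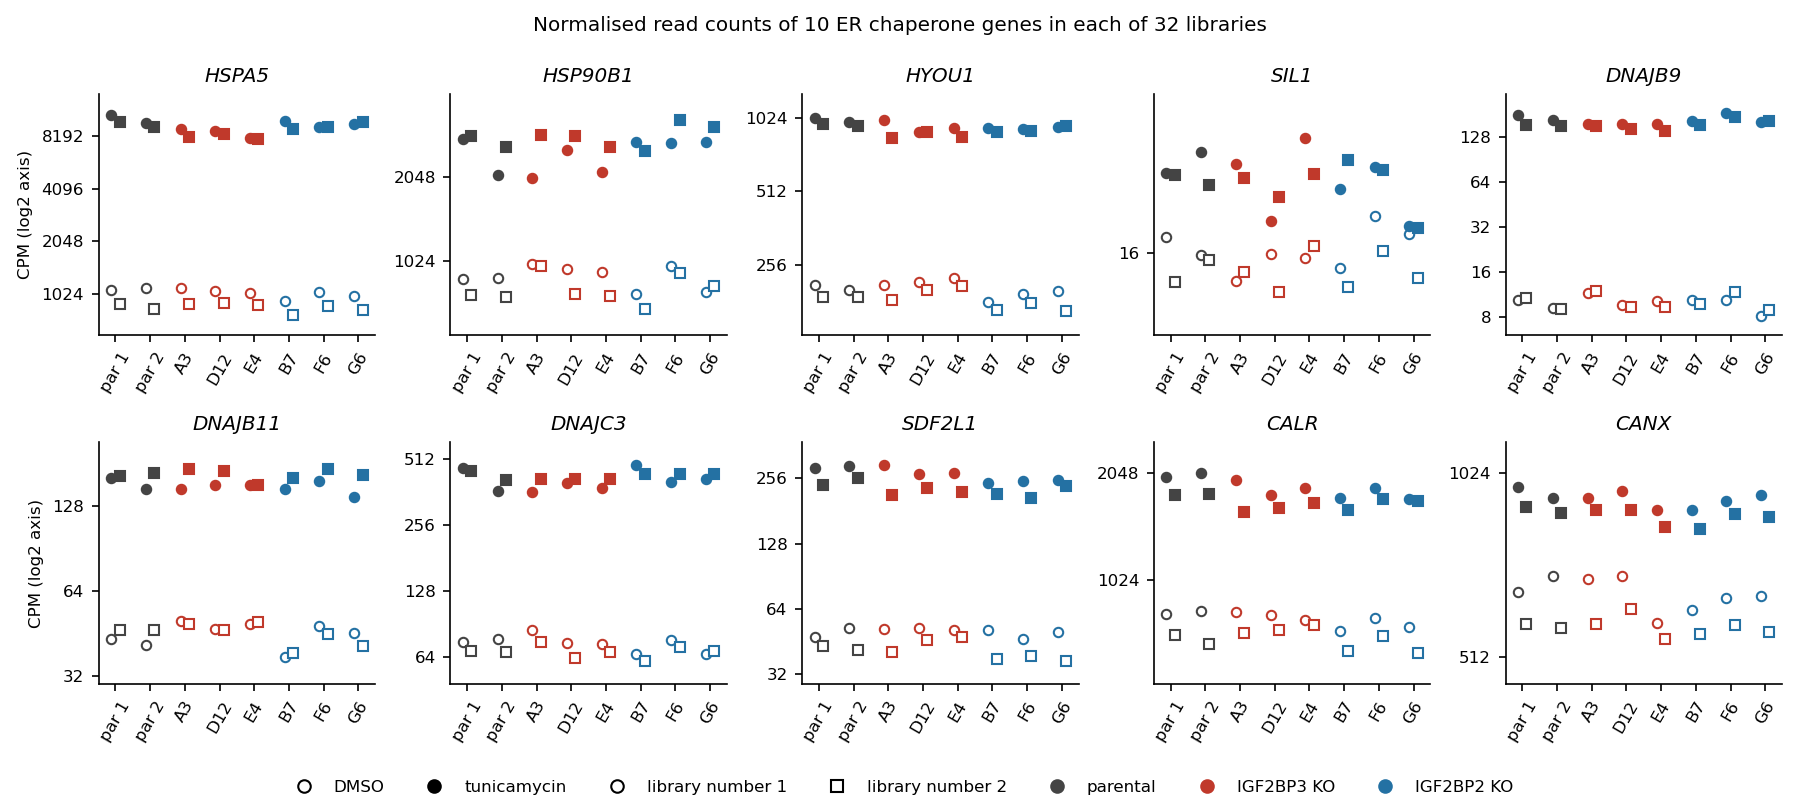
Each library's CPM for the 10 genes on log2 axes, by line (par 1 and par 2 are the parental samples), with open symbols for DMSO, filled ones for tunicamycin, circles for libraries numbered 1 and squares for those numbered 2. For 9 genes the tunicamycin libraries lie above all DMSO libraries, and for SIL1 the treatments overlap, with both tunicamycin libraries of clone G6 and 1 of clone D12 inside the DMSO range.

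HSPA5 made up most of the summed gain of the set when levels were taken per kilobase of exon. In the 4 parental DMSO libraries its level was 1074, 889, 1109 and 835 CPM, and in the 4 parental tunicamycin libraries 10903, 9853, 9805 and 9214 CPM. IGF2BP3 knockout DMSO libraries ran from 888 to 1109 CPM (median 972) and the tunicamycin libraries from 7917 to 9069 CPM (median 8237). IGF2BP2 knockout DMSO libraries ran from 774 to 1047 CPM (median 898) and the tunicamycin libraries from 9016 to 9973 CPM (median 9466). The lowest tunicamycin library of all lay 7.14 times above the highest DMSO library. The log2 response was 3.35 (SE 0.10, 10.2-fold, adjusted p 1.58e-08 by edgeR) in parental cells, 3.10 (SE 0.06, 8.55-fold) in IGF2BP3 knockout and 3.40 (SE 0.07, 10.5-fold) in IGF2BP2 knockout. HSPA5 alone took 0.0816 to 0.110% of all counts in DMSO libraries and 0.789 to 1.03% in tunicamycin libraries, and all 10 members together 0.316 to 0.401% and 1.45 to 1.77%. Per kilobase of exon, HSPA5 was 27.7% of the members' summed level in parental DMSO libraries and 56.7% in tunicamycin, and 64.0% of the summed rise. The summed level rose 4.97 times in parental cells, 4.27 times in IGF2BP3 knockout and 5.04 times in IGF2BP2 knockout. These sums are given without a test, and they depend on the length used. With the longest transcript as length, HSPA5 keeps 3908 bases, while HSP90B1 goes from 4695 to 3032 and CALR from 2714 to 1903. The HSPA5 shares would then be lower, and they were not computed. By the size of its log2 change HSPA5 ranked 25 among 14398 genes tested in parental cells.

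HSP90B1, the ER Hsp90, rose less than HSPA5 and varied more between parental tunicamycin libraries. Its parental DMSO libraries stood at 880, 768, 890 and 757 CPM and its parental tunicamycin libraries at 2819, 2886, 2092 and 2630 CPM. The groups did not overlap, but parental tunicamycin libraries differed among themselves by more than the whole DMSO range. The log2 response was 1.66 (SE 0.10, adjusted p 1.71e-06 by edgeR) in parental cells, 1.49 (SE 0.10) in IGF2BP3 knockout and 1.79 (SE 0.06) in IGF2BP2 knockout. In 7 of 8 lines the tunicamycin library numbered 2 was the higher one, and in all 8 lines the log2 ratio of tunicamycin over DMSO was larger among libraries numbered 2.

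Of the 2 nucleotide exchange factors of BiP in the set, HYOU1 rose strongly and SIL1 little. HYOU1, a large Hsp70-like protein also named GRP170, stood at 212, 189, 201 and 187 CPM in parental DMSO libraries and 1022, 974, 993 and 953 CPM in parental tunicamycin libraries. The spread within each treatment was small beside the distance between them. The log2 response was 2.33 (SE 0.05, adjusted p 4.45e-09 by edgeR) in parental cells, 2.13 (SE 0.05) in IGF2BP3 knockout and 2.37 (SE 0.05) in IGF2BP2 knockout. SIL1, whose loss in humans causes Marinesco-Sjögren syndrome, stood at 17.0, 14.3, 15.9 and 15.5 CPM in parental DMSO libraries and 21.8, 21.6, 23.6 and 20.8 CPM in parental tunicamycin libraries. The log2 response was 0.49 (SE 0.07, adjusted p 0.000674 by edgeR) in parental cells, 0.50 (SE 0.06) in IGF2BP3 knockout and 0.37 (SE 0.07) in IGF2BP2 knockout. SIL1 in IGF2BP2 knockout was the sole case among 30 pairs of gene and genotype in which the treatments overlapped, with 4 of 6 tunicamycin libraries above all DMSO libraries. Over all genes tested, every tunicamycin library lay above every DMSO library in 13.1% (parental), 8.41% (IGF2BP3 knockout) and 8.62% (IGF2BP2 knockout). The other 2 SIL1 libraries were those of clone G6, at 17.8 and 17.6 CPM against 17.2 and 14.5 CPM in its DMSO libraries. Without the G6 control libraries the change in IGF2BP2 knockout was 0.47 (SE 0.08) for SIL1 and 3.38 (SE 0.08) for HSPA5, and all 10 members stayed called higher by edgeR. From libraries numbered 1 alone SIL1 was not called in IGF2BP2 knockout (0.27, adjusted p 0.0557 by edgeR).

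The J-domain proteins rose by unequal amounts. DNAJB9 (ERdj4), which recruits BiP to the sensor IRE1, had the largest log2 change of the set and the lowest starting level. It stood at 10.4, 10.8, 9.23 and 9.07 CPM in parental DMSO libraries and 179, 154, 166 and 151 CPM in parental tunicamycin libraries. The log2 response was 4.04 (SE 0.07, 16.5-fold, adjusted p 7.28e-10 by edgeR) in parental cells, 3.85 (SE 0.06, 14.5-fold) in IGF2BP3 knockout and 4.06 (SE 0.06, 16.7-fold) in IGF2BP2 knockout. DNAJC3 (p58IPK), which has also been reported to inhibit the kinase PERK, rose by 2.56 on the log2 scale (SE 0.08) in parental cells. It rose by 2.46 (SE 0.06) in IGF2BP3 knockout and by 2.68 (SE 0.06) in IGF2BP2 knockout. DNAJB11 (ERdj3), which binds clients and hands them to BiP, rose by 1.85 (SE 0.07), 1.71 (SE 0.05) and 1.89 (SE 0.06) in the same order. SDF2L1, found in complex with DNAJB11, rose by 2.54 (SE 0.08), 2.38 (SE 0.08) and 2.43 (SE 0.08). DNAJB9 passed DNAJB11 in length-scaled level: in parental tunicamycin libraries it stood at 57.3 ± 4.47 and DNAJB11 at 28.0 ± 1.61 CPM per kilobase (SD, n = 4).

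The lectin chaperones rose least among the abundant members. CALR stood at 821, 718, 837 and 678 CPM in parental DMSO libraries and 1995, 1767, 2044 and 1784 CPM in parental tunicamycin libraries. The log2 response was 1.32 (SE 0.08, adjusted p 1.6e-06 by edgeR) in parental cells, 1.17 (SE 0.05) in IGF2BP3 knockout and 1.28 (SE 0.05) in IGF2BP2 knockout. CANX, the membrane-bound lectin, stood at 655, 580, 696 and 570 CPM in parental DMSO libraries and 974, 902, 935 and 881 CPM in parental tunicamycin libraries. Its log2 change of 0.57 (SE 0.07), 0.55 (SE 0.05) and 0.57 (SE 0.04) in the 3 genotypes was the second smallest of the set in parental cells, after that of SIL1. Both lectin genes carry 1 exact ERSE in the windows shown above, as HSPA5 does. Over all genes tested with a promoter, 21 of the 32 with an exact ERSE or ERSE-II were called higher in parental cells (65.6%), against 13.8% of 10455. The 6 members with such an element are among those 21, so this share is not independent of the members. Whether the elements set the response was not tested.

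The response was present in every line. In contrasts within each line, where 2 libraries per treatment carry the estimate and the spread is pooled over all 32 libraries, all 10 members were called higher in parental sample 1 (8.48% of 15622 genes called higher), parental sample 2 (7.14%), A3 (7.39%), D12 (7.07%), E4 (6.8%), B7 (7.5%) and F6 (7.71%). In clone G6, 9 of 10 were called (8.34% of genes), and the SIL1 response there was 0.16 (edgeR adjusted p 0.399). Leaving out single libraries ended the SIL1 call in 6 of the other 7 lines and the CANX call in parental sample 2, as listed under the dependence on processing. HSPA5 log2 ratios of line means were 3.40 and 3.29 in the parental samples, 3.10, 3.12 and 3.06 in A3, D12 and E4, and 3.48, 3.27 and 3.43 in B7, F6 and G6. The 3 IGF2BP3 knockout clones thus had the 3 lowest ratios of the 8 lines. For line means this order held in 1.62% of 15170 genes with a count in every library. HYOU1, CALR and DNAJB11 showed it as well. The other lines include the IGF2BP2 knockout clones, for which dose and duration are not given.

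**Figure D3:**
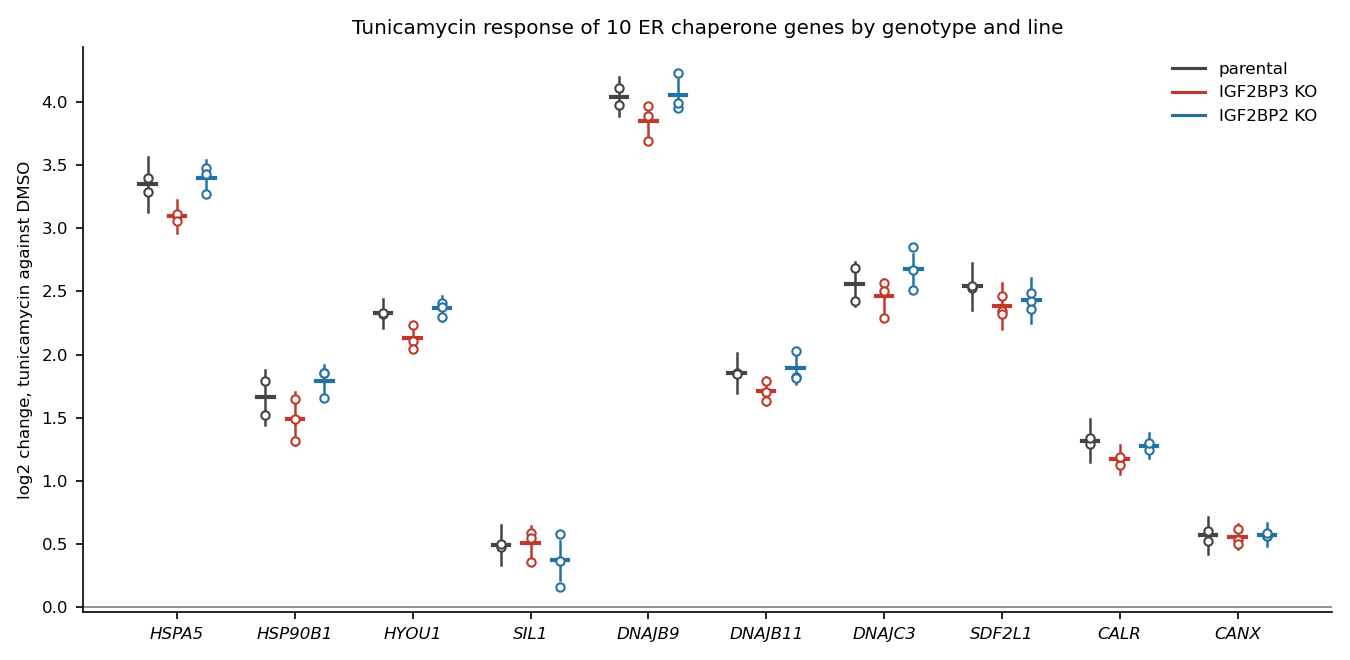
Log2 change in tunicamycin against DMSO for the 10 genes, with a horizontal mark for the fitted change of each genotype, a vertical line for its 95% interval and open points for the log2 ratio of means in each line. DNAJB9 is highest at 3.85 to 4.06, SIL1 and CANX lowest, and the IGF2BP3 knockout points for HSPA5 lie at 3.06 to 3.12, below the other lines. That order of lines held in 1.62% of 15170 genes.

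Basal levels in DMSO lay within 0.20 of each other on the log2 scale between genotypes. None of the 10 members was called in IGF2BP3 knockout against parental cells (1.61% of 14568 genes called), in IGF2BP2 knockout against parental cells (0.0137% of 14564) or in IGF2BP3 against IGF2BP2 knockout (0.589% of 14250). At an unadjusted p under 0.05 the members numbered 1, 0 and 3 in that order, against 13.7%, 4.74% and 14.0% of all genes. DESeq2 called 0, 0 and 1 members, against 3.48%, 0.0824% and 2.48% of all genes. Against parental cells, the log2 differences ran from -0.05 to 0.12 in IGF2BP3 knockout and from -0.12 to 0.02 in IGF2BP2 knockout. The 95% interval for HSPA5 was -0.16 to 0.18 in IGF2BP3 knockout and -0.31 to 0.10 in IGF2BP2 knockout. The largest difference between the knockouts was in HYOU1, with 183 to 225 CPM (median 209) in IGF2BP3 knockout and 165 to 199.7 CPM (median 179) in IGF2BP2 knockout. There 5 of 6 IGF2BP3 knockout libraries lay above all IGF2BP2 knockout ones, and the log2 difference of 0.20 (SE 0.05, adjusted p 0.11 by edgeR) was 0.17 among libraries numbered 1 and 0.21 among those numbered 2. It was called by DESeq2 (adjusted p 0.0483), and by edgeR with a block for the library number (adjusted p 0.0473) and in a fit of all 32 libraries (adjusted p 0.0388). Shares of all genes called are not given here for these 2 edgeR fits, so their calls cannot be read as particular to HYOU1. DNAJB11 showed 0.19 (SE 0.06, adjusted p 0.183 by edgeR) in the same comparison and 0.12 (SE 0.05, adjusted p 0.325 by edgeR) in IGF2BP3 knockout against parental cells, where 5 of 6 knockout libraries (46.6 to 50.2 CPM) lay above all 4 parental ones.

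In tunicamycin no member passed the edgeR test between genotypes without a block for the library number. With that block HSPA5 passed in IGF2BP3 knockout against parental cells. The share of all genes called with the block is not given here, so that call cannot be read as particular to HSPA5. HSPA5 alone among the members was lower in all 6 IGF2BP3 knockout libraries than in all 4 parental ones, as were 1.84% of all genes tested. No member was called in IGF2BP3 knockout against parental cells (0.718% of 14626 genes called), in IGF2BP2 knockout against parental cells (0.00694% of 14419) or in IGF2BP3 against IGF2BP2 knockout (0.391% of 14066). Members at an unadjusted p under 0.05 numbered 2, 2 and 3, against 10.3%, 6.97% and 14.7% of all genes, and DESeq2 called 1, 0 and 1, against 1.85%, 0.0208% and 2.69%. HSPA5 stood at 9944 ± 702 CPM (SD, n = 4) in parental, 8377 ± 448 CPM (SD, n = 6) in IGF2BP3 knockout and 9508 ± 397 CPM (SD, n = 6) in IGF2BP2 knockout libraries. The log2 difference of IGF2BP3 knockout from parental cells was -0.25 (SE 0.05, 95% interval -0.37 to -0.13, unadjusted p 0.000527, adjusted p 0.0634 by edgeR). Within numbers it was -0.27 among libraries numbered 1 and -0.23 among those numbered 2, and its 16 alternatives spanned -0.28 to -0.20, with adjusted p from 0.00341 to 0.337. It was called with DESeq2 (adjusted p 0.00341) and with a block for the library number (adjusted p 0.0114 by edgeR). Against IGF2BP2 knockout the HSPA5 difference was -0.19 (SE 0.05, adjusted p 0.0984 by edgeR; 0.00444 by DESeq2), and 5 of 6 IGF2BP3 knockout libraries lay below all IGF2BP2 knockout ones.

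The other members were lower in IGF2BP3 knockout than in parental cells in tunicamycin by 0.02 to 0.12 on the log2 scale, and none passed the test. HYOU1 was at -0.12 (SE 0.05, adjusted p 0.414 by edgeR), CALR at -0.12 (SE 0.06), DNAJB9 at -0.12 (SE 0.05) and SDF2L1 at -0.10 (SE 0.08). DNAJC3 was at -0.09 (SE 0.08), and HSP90B1, CANX, DNAJB11 and SIL1 were at -0.05 to -0.02. In IGF2BP2 knockout, HYOU1 lay below all parental tunicamycin libraries in 6 of 6 libraries (903 to 951 against 953 to 1022 CPM), as did 0.721% of all genes, with a log2 difference of -0.08 (SE 0.04, adjusted p 0.695 by edgeR). HSP90B1 in IGF2BP2 knockout was at 0.13 (SE 0.10) and SDF2L1 at -0.19 (SE 0.07, adjusted p 0.695 by edgeR).

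The size of the tunicamycin response was compared between genotypes by the interaction of genotype and treatment. With each library entered separately, no block, both library numbers and the filter on low counts, edgeR called no gene, and neither did DESeq2. This held in all 3 comparisons: IGF2BP3 knockout against parental cells (0.0% of 15313 genes), IGF2BP2 knockout against parental cells (0.0% of 15178) and IGF2BP3 against IGF2BP2 knockout (0.0% of 14916). Genes at an unadjusted p under 0.05 numbered 255 (1.67%), 213 (1.4%) and 271 (1.82%), of which members 2, 0 and 6. For HSPA5 the IGF2BP3 knockout response minus the parental one was -0.25 (SE 0.10, 95% interval -0.47 to -0.03, unadjusted p 0.0277 and adjusted p 1 by edgeR). HYOU1 was at -0.18 (SE 0.08, 95% interval -0.34 to -0.02). DNAJB9 at -0.19 (SE 0.09), HSP90B1 at -0.16 (SE 0.15), SDF2L1 at -0.15 (SE 0.13), CALR at -0.14 (SE 0.09), DNAJB11 at -0.13 (SE 0.09) and DNAJC3 at -0.09 (SE 0.10) had intervals that included 0. CANX at -0.01 (SE 0.08) and SIL1 at 0.02 (SE 0.09) were near 0.

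The comparison with IGF2BP2 knockout uses the same IGF2BP3 knockout libraries, so it is given beside the one with parental cells and not as an independent test. No tunicamycin dose or duration is given for the IGF2BP2 knockout clones. Their differences from other cells in tunicamycin, in level or in response, cannot be told apart from differences in treatment. There HSPA5 was at -0.29 (SE 0.09, 95% interval -0.48 to -0.11, unadjusted p 0.00359 by edgeR), HSP90B1 at -0.29 (SE 0.12), HYOU1 at -0.22 (SE 0.07), DNAJC3 at -0.21 (SE 0.09), DNAJB9 at -0.20 (SE 0.08) and DNAJB11 at -0.17 (SE 0.08). SIL1 had the opposite sign, at 0.14 (SE 0.10). The HSPA5 difference between the knockouts was called by edgeR with no filter on low counts, with counts summed per line and with libraries numbered 2 alone, and over its 16 alternatives the adjusted p ran from 5.77e-05 to 1. Libraries numbered 2 alone also called HYOU1 and CALR. Shares of all genes called under these settings are not given here, so these calls cannot be read as particular to the members. Without the G6 control libraries HSPA5 was at -0.27 (SE 0.10), HYOU1 at -0.21 (SE 0.08) and SIL1 at 0.04 (SE 0.10). The IGF2BP2 knockout response minus the parental one ran from -0.12 to 0.13 over the 10 members, with 7 above 0 and 3 below, and the HSPA5 interval was -0.21 to 0.30.

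**Figure D4:**
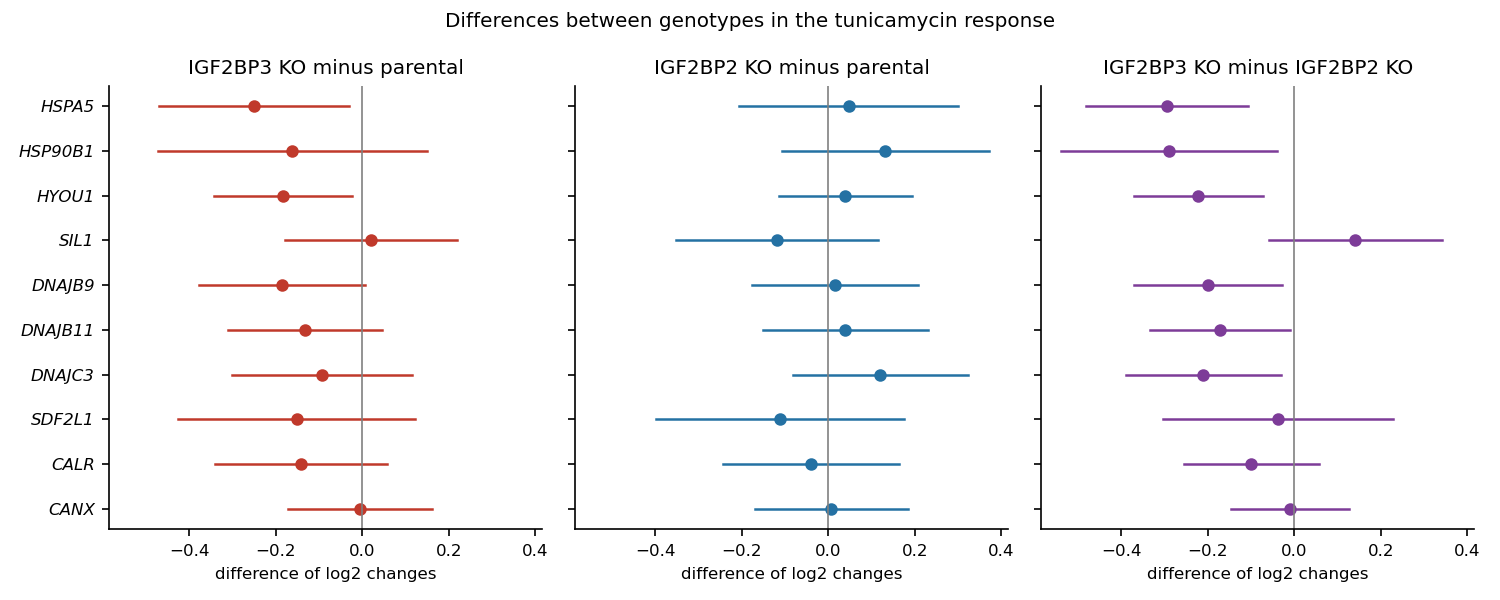
Differences between genotypes in the log2 tunicamycin response of the 10 genes, as points with 95% intervals not adjusted for the number of genes. The HSPA5 points lie at -0.25, 0.05 and -0.29 from left to right, and no difference was called after adjustment in the fits plotted.

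Libraries with the same number showed the HSPA5 difference separately. Among libraries numbered 1 the HSPA5 log2 ratio was 3.03, 3.03 and 2.96 in A3, D12 and E4, 3.34 and 3.14 in the parental samples and 3.14 to 3.43 in the IGF2BP2 knockout clones. Among libraries numbered 2 it was 3.17, 3.21 and 3.16 in A3, D12 and E4, 3.47 and 3.46 in the parental samples and 3.42 to 3.59 in the IGF2BP2 knockout clones. All 3 IGF2BP3 knockout clones lay below all 5 other lines under both numbers, and HSPA5 was the sole member of which this held. Those other lines include the IGF2BP2 knockout clones, for which dose and duration are not given. Among 15170 genes with a count in every library, 1.92% showed this order under number 1, 3.3% under number 2, 0.0791% under both and 1.62% for line means. Of the 10 members, 1 showed it under number 1, 4 under number 2 and 4 for line means. Beside HSPA5 these were HYOU1 and CALR among libraries numbered 2 and for line means, SDF2L1 among libraries numbered 2 and DNAJB11 for line means. HSPA5 also differed by number, as did the count of genes detected, and the part of that in the response was not tested. In DMSO the library numbered 1 was the higher one in 8 of 8 lines, and the response was larger among those numbered 2 in 8 of 8 lines. In fits of 1 number each, added after the data had been seen, the IGF2BP3 knockout difference from parental cells was -0.25 (SE 0.06, adjusted p 0.955 by edgeR) for number 1 and -0.29 (SE 0.04, adjusted p 0.00199 by edgeR) for number 2. Shares of all genes called in these fits are not given here, so the call for number 2 cannot be read as particular to HSPA5. For HSP90B1 the difference from IGF2BP2 knockout was -0.48 (SE 0.11) under number 1 and -0.12 (SE 0.05) under number 2, so its size depended on the number.

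**Figure D5:**
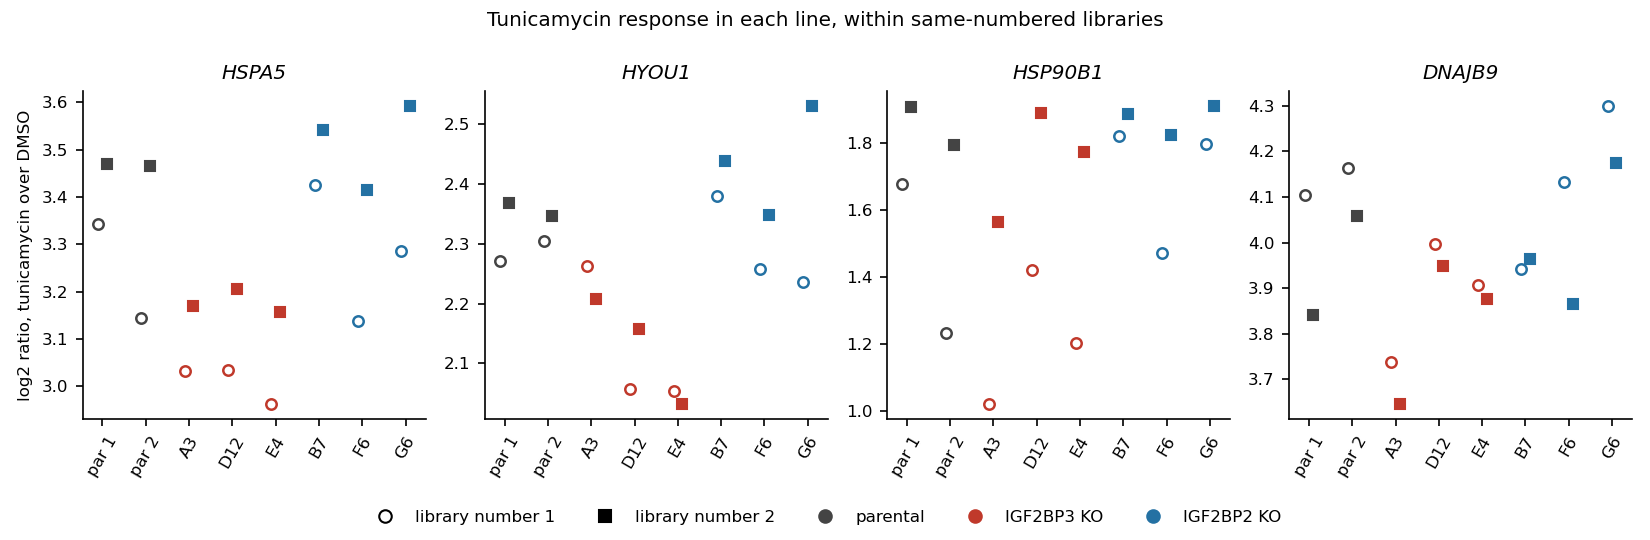
Log2 ratio of tunicamycin over DMSO in each line, computed within libraries numbered 1 (open circles) and numbered 2 (filled squares), for 4 of the genes; each point is 1 pair of libraries. For HSPA5 the 3 IGF2BP3 knockout clones are the lowest under each number, and for HSP90B1 the ratio is higher under number 2 in all 8 lines.

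Among clones of one knockout, HSP90B1 was the sole member called without a block, and in level only. With a block for the library number, CANX was called among the IGF2BP3 knockout clones (adjusted p 0.0246 by edgeR), and CALR (0.0422) and DNAJB9 (0.0325) beside HSP90B1 among the IGF2BP2 knockout clones. Shares of all genes called with the block are not given here, so these calls cannot be read as particular to the members. The values that follow are without the block. Among the IGF2BP3 knockout clones no member differed in level (7.63% of 14265 genes called, and 1 member, CANX, at an unadjusted p under 0.05, as were 20.5% of all genes) or in response (0.0%, and 0 members at an unadjusted p under 0.05), and DESeq2 called 0 members in both. CANX in DMSO stood at 633, 654 and 564 CPM as means of A3, D12 and E4. Among the IGF2BP2 knockout clones HSP90B1 differed in level (adjusted p 0.0343 by edgeR), against 26.4% of 14145 genes called. There 2 members, HSP90B1 and DNAJB9, had an unadjusted p under 0.05, as did 37.3% of all genes. Its line means in DMSO were 731, 953 and 807 CPM in B7, F6 and G6, and in tunicamycin 2641, 3000.4 and 2922 CPM. The call was lost without the libraries numbered 2 of B7 (adjusted p 0.228 by edgeR) or of F6 (adjusted p 0.152 by edgeR). No member's response differed among the IGF2BP2 knockout clones (0.0% of genes called, and 1 member, DNAJC3, at an unadjusted p under 0.05; 0 members by DESeq2). The 2 parental samples differed in no member, in level (0.0%) or in response (0.0%), with 0 members at an unadjusted p under 0.05 in either. By edgeR 254 and 110 genes in all had an unadjusted p under 0.05 there, and DESeq2 called 0 and 0.

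Genes around this set moved in the same treatment to unequal extents, and the lists that follow were chosen with results of these data known. The counts of each list read against 12.5%, 16.2% and 19.2% of all genes called higher in parental, IGF2BP3 knockout and IGF2BP2 knockout cells, and 14.3%, 17.6% and 20.9% called lower. Of 11 other ER-lumen Hsp70, J-domain and BiP partner genes, 8 rose in parental cells, 8 in IGF2BP3 knockout and 9 in IGF2BP2 knockout. In parental cells MANF, a secreted BiP cofactor, rose by 1.83 on the log2 scale (SE 0.10) and HSPA13, an ER Hsp70, by 1.74 (SE 0.06). SDF2, the constitutive relative of SDF2L1, fell by 0.22 (SE 0.07) with IGF2BP3 knocked out and by 0.28 (SE 0.06) with IGF2BP2 knocked out, and was at -0.19 (adjusted p 0.0693 by edgeR) in parental cells. The median of this list in parental cells was 0.49.

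Of 10 lectin and glycan quality-control genes, 6, 7 and 8 rose in parental, IGF2BP3 knockout and IGF2BP2 knockout cells, with a parental median of 0.32. EDEM1, which sends misfolded glycoproteins to degradation, rose by 2.25 (SE 0.21) in parental cells and PDIA3, the oxidoreductase bound to calnexin and calreticulin, by 1.01 (SE 0.08). MOGS, the first glucosidase of glycan trimming, fell by 0.14 in IGF2BP2 knockout and was at -0.07 (adjusted p 0.619 by edgeR) in parental cells. Of 13 prolyl isomerases and client-specific chaperones, 12 were tested and 5, 6 and 6 rose. CRELD2 rose by 2.00 (SE 0.07) and FKBP14 by 0.99 (SE 0.16) in parental cells. CNPY4 fell by 0.86 in IGF2BP3 knockout and by 0.73 in IGF2BP2 knockout, and was at -0.61 (SE 0.31, adjusted p 0.2 by edgeR) in parental cells. Of 9 UPR sensors and transcription factors, 6, 7 and 6 rose, led in parental cells by DDIT3 (CHOP) with 6.81 (SE 0.16) and EIF2AK3 (PERK) with 2.89 (SE 0.08).

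Among chaperones of the cytosol and mitochondria more genes fell than rose. Of 18 such genes 16 were tested, and 1 rose and 6 fell in parental cells, 1 rose and 7 fell with IGF2BP3 knocked out, and 2 rose and 8 fell with IGF2BP2 knocked out. HSPA8, the constitutive cytosolic Hsp70, fell by 1.77 (SE 0.05) and DNAJA1, a J-domain partner of it, fell by 0.80 (SE 0.05) in parental cells, while the mitochondrial Hsp70 gene HSPA9 rose by 0.40 (SE 0.06). The parental median of this list was -0.11. No gene of these 5 lists was called by edgeR in any comparison between genotypes, in DMSO, in tunicamycin or in the size of the response.

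The genes outside the set and lists whose log2 level was most like that of HSPA5 over the 16 means of line and treatment were CEBPG, SYVN1, HERPUD1, SERP1 and DERL2, with Pearson's r of 0.998 to 0.999 among 10207 genes. The members HYOU1, DNAJC3 and DNAJB9 had r of 0.998 to 0.999, HSP90B1 0.992, CANX 0.986 and SIL1 0.901. All 16 points share the split into DMSO and tunicamycin, which sets most of each r.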

How the data were processed

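The 32 libraries were read as one table of counts per gene, which the authors deposited as whole numbers without normalization. Per the labels' protocols, poly(A) RNA was made into directional libraries and sequenced as paired reads of 100 bases. STAR 2.7.5c and the build hg38 are named in the submitters' processing notes with no role. The counting tool, annotation and strand setting are not given in the sources used here, so reads of overlapping or antisense genes may have been split in ways not known. Groups were taken from sample titles and lines from the labels. Total counts ranged from 16651438 to 24913021 (median 21441775.5), which gave every member at least 179 counts per library.

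From the deposited counts, CPM was computed with TMM factors over all 32 libraries, and per kilobase by the union of GENCODE 29 exons. Tests used edgeR 4.0.16 (quasi-likelihood, filterByExpr, TMM, Benjamini-Hochberg adjustment over all genes tested, threshold 0.05) in R 4.3.3 with limma 3.58.1. Tunicamycin responses had the line as a term, genotype comparisons within a treatment had no covariate, and differences in response were interactions of genotype and treatment with the line as a term. Lines were also tested in one fit of all 32 libraries. Intervals are 95% and not adjusted. Knockout clones share guides and 2 libraries share a line, so libraries are not fully independent. The code was tested on simulated counts. Alternatives were DESeq2 1.42.0, its size factors, no filter, mean CPM of at least 1, a replicate block, counts summed per line, all libraries in one fit, single lines or libraries left out, and the G6 control libraries left out; fits of 1 library number each were added after the data had been seen. Promoters were taken from RefSeq. Figures were drawn with matplotlib 3.10.9 in Python 3.11.15.

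The members and all gene lists were chosen with earlier results of these data known. Named genes were the 10 members, the targeted genes, at most the 2 largest rises and 2 largest falls among the called genes of each list, and the 5 genes outside the lists most like HSPA5 among those with a mean count of at least 100.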

Additional observations from a re-analysis of the deposited data

How the results depend on the processing

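The tunicamycin call of all 10 members in each genotype held under every alternative except SIL1 in IGF2BP2 knockout from libraries numbered 1 (0.27, adjusted p 0.0557 by edgeR). In single lines, where the spread is pooled over all libraries, the SIL1 call was lost without 1 library in both parental samples, D12, E4 and B7 and without either number in F6, and with no filter on low counts in D12 and F6; the CANX call was lost in parental sample 2 without its library numbered 2. Of 293 counts of called members under an alternative, 277 were unchanged within 1.5 times and 16 moved.

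With a replicate block, that is the library number as a term, 1 member was called in IGF2BP3 against IGF2BP2 knockout in DMSO (HYOU1), 1 in IGF2BP3 knockout against parental cells in tunicamycin (HSPA5), 1 in level among IGF2BP3 knockout clones (CANX) and 3 among IGF2BP2 knockout clones (HSP90B1, CALR, DNAJB9). Deviations of libraries with the same number correlated at -0.0220 to 0.747 (median 0.534) over 120 pairs, 114 of them above 0.1; since not all were, the block was kept as an alternative, although the number of genes detected also separates the 2 numbers. The block raised the genes called in IGF2BP3 knockout against parental cells in DMSO from 235 to 513. DESeq2 called 1 member (HYOU1) between the knockouts in DMSO, and 1 (HSPA5) in IGF2BP3 knockout against parental cells and 1 (HSPA5) against IGF2BP2 knockout in tunicamycin; it called 507 genes where edgeR called 235, and summed counts per line called 47. A single fit of all 32 libraries called 1 member (HYOU1) between the knockouts in DMSO, and leaving out single clones gave 0 to 1 there (DNAJB11 without F6). In the difference in response between the knockouts, no filter and summed counts each called 1 member (HSPA5), and libraries numbered 2 called 3 (HSPA5, HYOU1, CALR); against parental cells libraries numbered 2 called 1 (HSPA5). Among IGF2BP2 knockout clones a mean CPM of at least 1 called 2 members in level (HSP90B1, DNAJB9), and leaving out single libraries 0 to 1. Where no count or share of all genes is given for an alternative, its member calls cannot be read as particular to the members. The cause of these changes was not tested. Leaving out the G6 control libraries changed no count of members called. The lowest count of a member in any library was 179.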
